A study of Mus musculus with 2 samples.

Results

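The Notch and Hedgehog pathways were described in CH cells through 42 listed genes, 29 of the Notch pathway and 13 of the Hedgehog pathway. CH cells are small cells that lack CD45 and lineage antigens and that were sorted from the blood of healthy mice, named PlCH cells in the labels. A probe set, the group of short oligonucleotides by which the array reads a transcript, was taken for a gene when the platform annotation named that gene and no other. All 42 genes had at least 1 such probe set and they had 92 in total, out of 18193 genes on the arrays. The study put RNA of 2 pools of CH cells on 1 Affymetrix mouse array each. Both pools came from C57bl/6 mice of both sexes, labelled as adult at 7 months, with 15 mice per pool and no injury, transgene or treatment named, and the submitters call them biological replicates. The methods of the paper describe younger mice and fewer per pool, so the age and the pool size are not settled. There was no other group, so levels were set against a fixed limit and no condition was compared with another.

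Notch signalling passes between touching cells. A ligand of the Delta or Jagged type on one cell binds a Notch receptor on its neighbour, proteases of the ADAM family and the gamma-secretase complex then cut the receptor, and its freed intracellular part joins the DNA-binding protein Rbpj and a Mastermind protein to switch on genes of the Hes and Hey type. Hedgehog ligands are secreted. They bind Ptch1, which then stops holding back the membrane protein Smo, and Smo acts at the primary cilium to release the Gli transcription factors from Sufu. Notch is known for fate choices in lymphocytes, vessels and somites, and Hedgehog for patterning of the limb and neural tube and for growth of cartilage.

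Signals are given as deposited, on the log2 scale, and the level of a gene is the mean of both arrays for its highest probe set, with the SD over n = 2 arrays. Signals of different probe sets also depend on how well each binds its target, so they were not used to rank genes by abundance. The arrays correlated with Pearson's r = 0.9967 over 45037 probe sets (not independent of each other), and their medians were 5.54 and 5.52. A gene was counted as above the limit when 1 of its probe sets exceeded 5 on both arrays. The paper used the same value in another way, to drop before clustering the genes that stayed below it in all arrays of its joint dataset. Because the array reads pooled RNA, fewer cells with a transcript and less of it per cell cannot be told apart. The CD45 gene Ptprc, the target of the negative gate, had 4.95 on array 1 and 5.24 on array 2 with its highest probe set and was not above 5 on both.

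The share of genes above the limit in CH cells was higher than that of all genes for Notch and near it for Hedgehog. Above 5 were 27 of 29 Notch genes (93.1%) and 9 of 13 Hedgehog genes (69.2%), beside 71.2% of all genes on the arrays. The Notch genes not above it were Notch4 and Hey2, and the Hedgehog genes not above it were all 3 ligands, Shh, Ihh and Dhh, and the inhibitor Hhip. With limma, which tests each mean against 5 at an adjusted p under 0.05, 26 Notch genes and 8 Hedgehog genes were above 5, beside 69.1% of all genes. Hes5 and Gli1 were the genes above 5 on both arrays that limma did not call. Hey2 and Shh were below 5 by limma, beside 23.6% of all genes whose highest probe set was called below. The median level was 7.24 for the Notch genes and 7.11 for the Hedgehog genes, beside 6.84 over all genes.

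A signal above 5 was also found for receptors of smell and taste, taken as a background of genes with little reason to be read in blood. Of 77 such chemosensory receptor genes, 13 (16.9%) were above 5 on both arrays, and limma called 11. The median of their 86 probe sets was 4.03, and 95% of them lay below 6.02, called the chemosensory percentile in the following. Above it on both arrays were 23 Notch genes and 8 Hedgehog genes, beside 57.5% of all genes. Above 8 were 10 Notch genes (34.5%) and 4 Hedgehog genes (30.8%), near the 37.0% of all genes. The highest level of a chemosensory receptor gene was 6.92, and 11 of the 36 listed genes above 5 lay below it. Their transcripts, like those of the genes not above 5, could not be told from background by level alone. The listed genes carried more probe sets per gene than the array as a whole, 2.07 for Notch and 2.46 for Hedgehog against 1.92. More probe sets give a gene more chances to pass with its highest, and the part of this in the shares was not tested. With the median of a gene's probe sets, 82.8% of Notch genes and 69.2% of Hedgehog genes were above 5, beside 65.2% of all genes.

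**Figure D1:**
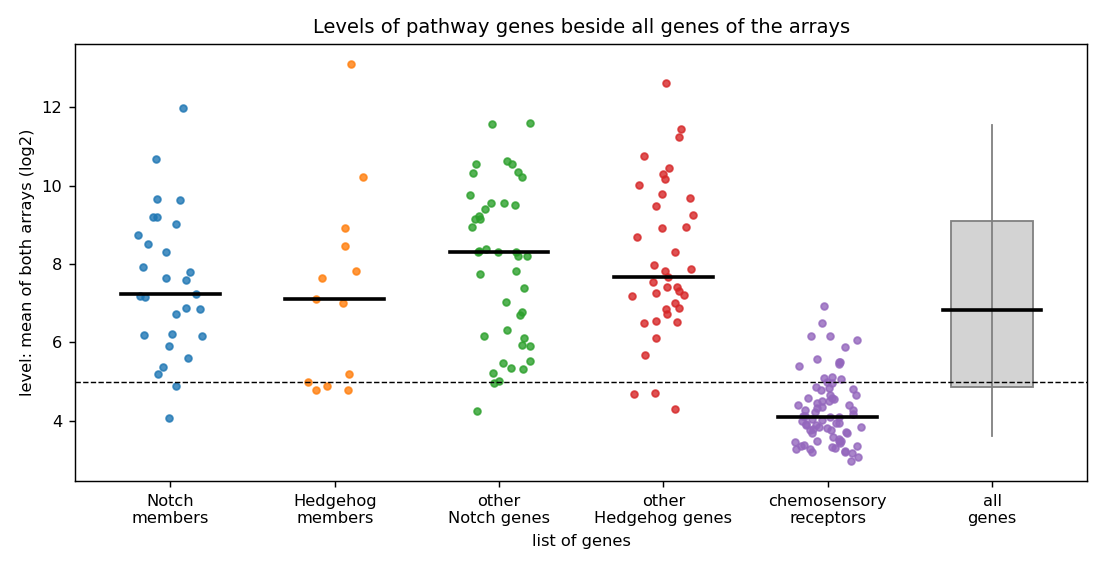
Level per gene (mean log2 signal of both arrays, highest probe set) for 5 lists of genes, with 1 point per gene and a black bar at the median of each list, and for all genes a box from the 25th to the 75th percentile with a line from the 5th to the 95th. The dashed line marks 5, and the medians run from 4.10 for chemosensory receptors to 8.31 for the other Notch genes, with 6.84 over all genes.

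Of the Notch receptors, Notch1, Notch2 and Notch3 were above 5 and Notch4 was not, beside 71.2% of all genes above it. Notch1, the receptor needed for T cell fate, had signals of 7.83 on array 1 and 8.04 on array 2, a level of 7.93 ± 0.15, and its other probe set was at 6.70. Notch2, a receptor of many tissues, had 9.22 and 9.16, a level of 9.19 ± 0.04, with its other probe set at 5.24. Both probe sets of each of these receptors were above the limit on both arrays. Notch3, a receptor known from the muscle coat of vessels, had 7.80 and 7.78, with its other probe set at 5.56. Notch4, a receptor of endothelium, had 4.72 on array 1 and 5.07 on array 2, and both of its other probe sets were lower still. The arrays therefore lay on different sides of 5 for Notch4, and limma did not separate its mean of 4.89 ± 0.25 from 5 (adjusted p = 0.377).

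Endothelial and mural marker genes stand beside these values because Notch4, Dll4, Hey1 and Hey2 are also genes of endothelium, and Notch3 and Heyl of mural cells. Of 10 endothelial markers, 5 were above 5, beside 71.2% of all genes, with levels from 3.83 to 7.32. Pecam1, which encodes CD31, was at 4.57 ± 0.04 and below 5 by limma (adjusted p = 2.1e-03). Cdh5, the cadherin of endothelial junctions, had 5.07 and 5.20, and limma did not separate it from 5 (adjusted p = 0.154). Of 8 mural markers, 7 were above 5, with levels from 4.91 to 12.88 and a median of 6.62. Only 2 of the 8 (25%) were above 8 on both arrays, beside 37.0% of all genes. Of 8 leukocyte markers with a probe set, 3 were above 5, with levels from 3.85 to 7.42. All 5 platelet markers with a probe set were above 5, from 5.55 to 7.18. Of 6 erythroid markers with a probe set, 3 were above 5, and the levels of the 6 ran from 4.22 to 12.12 with a median of 5.4. Mesenchymal and pluripotency markers were above 5 in 8 of 8 cases each, from 6.55 to 14.27 and from 6.59 to 10.43. Their part in the levels of the pathway genes was not tested.

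All 6 Notch ligand genes were above 5, beside 71.2% of all genes, with levels from 5.91 to 8.52. Jag1, a Jagged ligand of mesenchyme and epithelium, had 8.48 on array 1 and 8.57 on array 2, a level of 8.52 ± 0.06, and its other probe sets were at 6.59 and 5.44. It was the only ligand above 8 on both arrays. Jag2 had 6.98 and 6.80, with its other probe set at 5.12. Dll3, a Delta protein that acts inside the cell to hold Notch back, had 7.60 and 7.68, close together on its single probe set. Dll1, a Delta ligand of the somites and of lymphoid tissue, had 6.36 and 6.03. Dll4, the Delta ligand of sprouting vessels, had 6.08 and 5.74, a level of 5.91 ± 0.24, and its other probe set lay below 5. Only array 1 of Dll4 exceeded the chemosensory percentile. Dlk2, a Delta-like protein without the receptor-binding domain of the classical ligands, had 7.20 and 7.11.

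The enzymes that modify and cut Notch were above 5 in 8 of 8 cases, beside 71.2% of all genes. Pofut1, which adds the fucose that the receptor needs, had 9.08 and 8.98 with 1 probe set, and the other probe sets of it were at 7.57 and 6.73. Fringe enzymes extend this fucose and thereby change which ligand is preferred. Among them Rfng had 8.40 and 8.20, Mfng 6.28 and 6.14, and Lfng 5.39 and 5.33. Lfng was the enzyme nearest to the limit, at 5.36 ± 0.04 (adjusted p = 4.5e-03 with limma), and its other probe set was at 4.55. Adam10, the protease that makes the first cut after ligand binding, had 10.67 and 10.68, and its 3 other probe sets were also above 5 on both arrays. Adam17, a related protease, had 9.68 and 9.60. Of the gamma-secretase subunits, the catalytic Psen2 had 7.45 and 7.71 and Ncstn, which receives the substrate, had 6.87 and 6.81. The second probe set of Ncstn was at 3.99, below 5 on both arrays.

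The nuclear partners of the receptor were both above 8, beside 37.0% of all genes. Rbpj, the DNA-binding protein of the pathway, had 11.90 on array 1 and 12.07 on array 2, a level of 11.99 ± 0.12, and its other probe sets were at 11.28 and 9.77. All 3 of its probe sets thus exceeded 8 on both arrays. Maml1, a coactivator of the complex, had 9.14 and 9.29, with other probe sets at 7.58 and 3.87. Numb, an adaptor that removes Notch from the membrane, had 8.98 on array 1 and 8.48 on array 2, a level of 8.73 ± 0.35, the largest SD among the levels of the 42 genes. Its relative Numbl had 6.14 and 6.20.

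Among the target genes the signals lay on both sides of the limit. Hes1, a repressor that most Notch signals induce, had 9.67 on each array, and limma placed its mean above 5 (adjusted p = 1.4e-07). Nrarp, which is induced by Notch and limits the intracellular receptor, had 7.09 and 7.29, with its other probe set at 6.82. Both genes were above the chemosensory percentile on both arrays. Hes6, a relative that counteracts Hes1, had 7.22 and 7.25, and Hey1, a target in vessels and bone, had 6.79 and 6.65. Heyl had 5.56 and 5.64 with 1 probe set, while the other probe sets of it were at 4.90 and 4.69. Hes5, a target in neural progenitors, had 5.09 on array 1 and 5.31 on array 2, a level of 5.20 ± 0.16 that limma did not separate from 5 (adjusted p = 0.0754), with its other probe set at 4.32. Hey2, a target in arteries and heart, had 3.87 and 4.27, below 5 on both arrays (adjusted p = 5.7e-04 with limma). Of the 7 genes listed as targets, among them Hes6 as a relative of Hes1, 4 (57.1%) were thus above the chemosensory percentile. This share was near the 57.5% of all genes. The other 3, Heyl, Hes5 and Hey2, were near or below the limit.

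Promoter windows of the listed genes were taken from a table of RefSeq promoters, assembly GRCm38.p6, in which 35 of the 42 genes were matched. Each window runs from 250 bases before the start of a transcript to 50 after it. The letters GTGGGAA, the core bound by Rbpj, were searched on both strands. They were found in 6.38% of all 32851 windows and in 4 of the 42 windows that these 35 genes had, those of Hes5, Hey2, Lfng and 1 of the 2 of Psen2. Hes5 and Hey2 held them 2 times each, once on either strand, and Lfng and Psen2 once. The stretches of Hes5, Hey2 and Lfng are shown because these genes, which Notch is known to induce in embryonic tissues, carry the letters. Their signals were near or below 5, while Psen2, which is not shown, had a level of 7.58. The letters were in 3 of 37 windows (8.11%) of listed genes above 5, beside 6.1% for all genes above 5. They were in 1 of 5 windows (20%) of listed genes not above it, that of Hey2, beside 6.98% for all genes not above 5. A link between letters and signal was not tested. Capitals mark GTGGGAA or its reverse complement TTCCCAC, and these windows hold no match to the Gli letters described with the Hedgehog genes. Hes5 lies at chr4:154960673-154960922 on the plus strand, Hey2 at chr10:30842781-30843033 on the minus strand, with 3 bases past the start, and Lfng at chr5:140607091-140607340 on the plus strand, each written 5′ to 3′ in the direction of the transcript.
Hes5: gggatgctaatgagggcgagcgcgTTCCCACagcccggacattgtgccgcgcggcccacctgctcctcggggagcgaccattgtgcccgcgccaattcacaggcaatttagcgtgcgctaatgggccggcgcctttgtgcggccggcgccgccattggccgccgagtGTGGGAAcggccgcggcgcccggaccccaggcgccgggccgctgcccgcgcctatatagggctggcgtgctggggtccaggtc
Hey2: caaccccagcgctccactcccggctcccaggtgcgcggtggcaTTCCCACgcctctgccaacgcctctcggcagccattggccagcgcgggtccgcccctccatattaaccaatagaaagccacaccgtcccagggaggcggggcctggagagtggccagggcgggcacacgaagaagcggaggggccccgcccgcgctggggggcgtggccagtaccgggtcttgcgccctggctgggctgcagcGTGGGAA
Lfng: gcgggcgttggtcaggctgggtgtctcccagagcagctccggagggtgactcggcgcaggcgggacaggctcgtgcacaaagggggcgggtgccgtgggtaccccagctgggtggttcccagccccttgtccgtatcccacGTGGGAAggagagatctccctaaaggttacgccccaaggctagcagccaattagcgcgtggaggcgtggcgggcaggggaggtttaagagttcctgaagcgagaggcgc

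The first match in Hes5 begins 226 bases before the start and the second 83 bases before it. In Hey2 they begin 207 and 4 bases before the start, and in Lfng the match begins 109 bases before it. A match of letters is a description of the sequence and not a bound site. Windows of Hes1, Hey1, Heyl, Mfng, Shh, Boc and Gli1 were not analysed here. Besides Hes5 and Hey2, the only genes listed as targets with a window were Nrarp and Hes6, whose windows did not hold these letters.

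**Figure D2:**
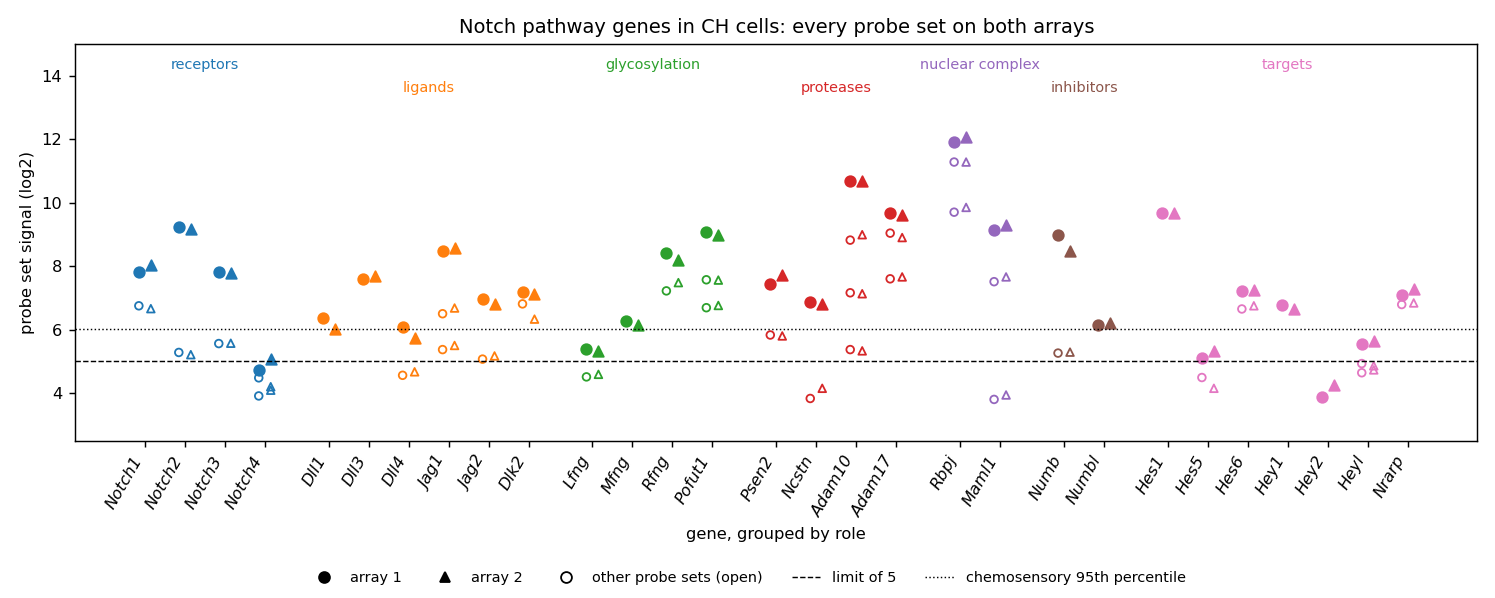
Log2 signal of every probe set of the 29 Notch genes, with circles for array 1 and triangles for array 2, filled for the highest probe set of a gene and open for the others. The limit of 5 is dashed and the chemosensory percentile of 6.02 is dotted. Rbpj lies near 11.99, and Hey2 is below the dashed line on both arrays.

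Of 48 other genes of the Notch pathway, 43 had a probe set that names them alone. Of these, 41 (95.3%) were above 5, beside 71.2% of all genes, with a median of 8.31 beside 6.84. Above the chemosensory percentile were 32 (74.4%), beside 57.5% of all genes. Further genes listed under receptor processing were above 5 in 6 of 6 cases. Psenen, the gamma-secretase subunit that completes the complex, was at 11.58 ± 0.05, Poglut1, which adds glucose to the receptor, was at 10.57 ± 0.14, Pofut2, a fucosyltransferase related to Pofut1, was at 10.57 ± 0.09, Furin, which matures the receptor, was at 8.31 ± 0.07, and Aph1b was at 6.78 ± 0.13. All 14 genes of endocytosis and ubiquitin transfer were above 5. They included the kinase Aak1 at 10.23 ± 0.03, the ubiquitin ligases Itch at 9.57 ± 0.05 and Dtx3l at 9.51 ± 0.06, Neurl1b at 5.47 ± 0.002 and Neurl3 at 5.22 ± 0.05. Nuclear cofactors were above 5 in 14 of 15 cases, among them the corepressors Ctbp1 at 11.59 ± 0.12 and Ctbp2 at 10.35 ± 0.02, Snw1 at 10.64 ± 0.03 and Tle2 at 5.32 ± 0.06. The exception was Maml2, a further Mastermind coactivator, at 4.24 ± 0.11. Of 5 other proteins described as ligands, 4 were above 5, namely Mfap2 at 7.82 ± 0.01, Dner at 6.71 ± 0.14, Mfap5 at 6.12 ± 0.18 and Dlk1 at 5.35 ± 0.09, while Cntn1 was at 4.95 ± 0.05. Hes3 and Hes7 were at 5.94 ± 0.14 and 5.91 ± 0.08, below the chemosensory percentile, and Hes2 was at 5.01 ± 0.002, which limma did not separate from 5 (adjusted p = 0.876). Genes of the list without such a probe set were not analysed here.

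The 3 Hedgehog ligand genes had no probe set above 5 on both arrays, while 71.2% of all genes had one. Shh, the ligand of limb and neural tube, had 4.86 and 4.73, and its other probe set was at 3.60. Limma called its mean of 4.80 ± 0.09 below 5 (adjusted p = 0.047). Ihh, the ligand of growing cartilage, had 4.99 and 4.79 (adjusted p = 0.237), and Dhh, the ligand of testis and nerve sheath, had 5.02 on array 1 and 4.98 on array 2 (adjusted p = 0.993). All 3 levels lay within the range of the chemosensory receptor genes.

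The proteins that receive a Hedgehog signal were above 5 except Hhip, beside 71.2% of all genes. Smo, the transducer, had 10.19 on array 1 and 10.25 on array 2, a level of 10.22 ± 0.05, with other probe sets at 9.39 and 3.39. Ptch1, the receptor, which is also a target gene of the pathway, had 8.93 and 8.89, a level of 8.91 ± 0.03, with other probe sets at 5.42 and 4.29. Hhip, a membrane protein that traps the ligands and is likewise a target gene, had 4.64 and 4.94, and all 4 of its probe sets lay below 5 on both arrays. Limma did not separate its mean from 5 (adjusted p = 0.0855). The 3 co-receptors that help ligands to reach Ptch1 were all above 5, beside the same 71.2%. Gas1, one that is also known from growth arrest of fibroblasts, had 13.08 and 13.15, a level of 13.11 ± 0.04, and its other probe sets were at 10.40 and 6.58. Cdon had 7.65 and 7.62, and Boc had 7.10 and 6.90 with 1 probe set and 6.72 and 6.87 with another. The lowest probe set of Boc was at 3.40.

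Among the transcription factors Gli2 and Gli3 were above the chemosensory percentile and Gli1 was not, beside 57.5% of all genes above it. Gli3, which is cut to a repressor in cells without ligand, had 7.73 and 7.92, and a further probe set of it had 7.79 and 7.81. Its lowest probe set had 4.58 on array 1 and 5.03 on array 2, on different sides of the limit. Gli2, the main activator at the start of a response, had 7.20 and 7.03, with its other probe set at 5.81. Gli1, the factor that the pathway itself induces, had 5.31 and 5.10, a level of 5.20 ± 0.15 that limma did not separate from 5 (adjusted p = 0.067). Sufu, which holds Gli proteins back, had 8.46 and 8.45, with other probe sets at 5.92 and 5.53. Of the genes that Hedgehog signalling is known to induce, Ptch1 was thus above 8 on both arrays with its highest probe set only. The other probe sets of Ptch1 were at 5.42 and 4.29. Gli1 was near 5 and Hhip below it. The Gli letters GACCACCC were in 0.807% of all promoter windows on either strand and in no window of the 10 Hedgehog genes matched, and in those of Nrarp and Adam17 among the Notch genes.

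**Figure D3:**
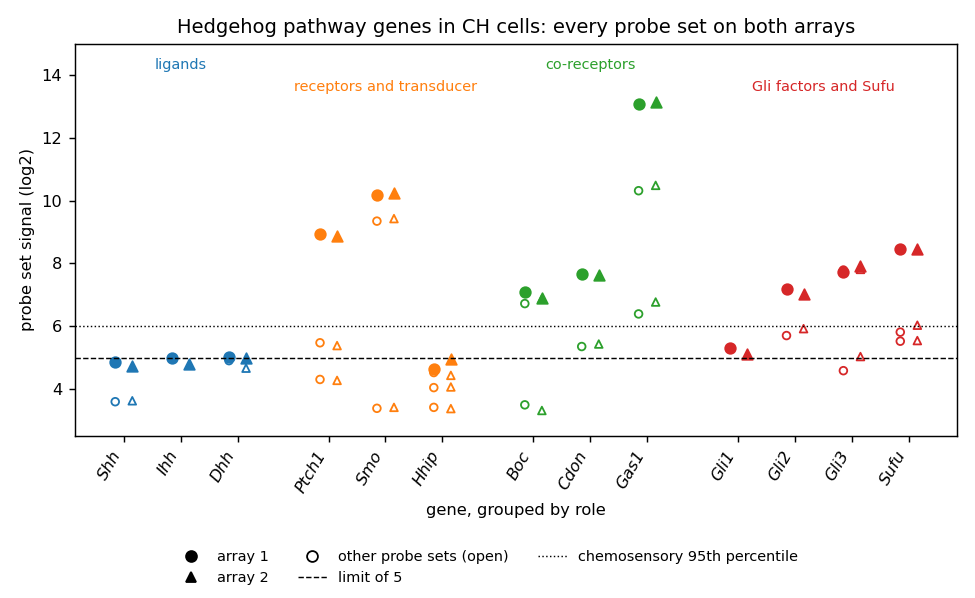
Log2 signal of every probe set of the 13 Hedgehog genes, with circles for array 1 and triangles for array 2, filled for the highest probe set of a gene and open for the others. The limit of 5 is dashed and the chemosensory percentile of 6.02 is dotted. The ligands and Hhip lie at or below the dashed line, and Gas1 lies near 13.11.

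Of 41 other Hedgehog genes, 39 had a probe set that names them alone. Of these, 36 (92.3%) were above 5, beside 71.2% of all genes, with a median of 7.67 beside 6.84. Above the chemosensory percentile were 34 (87.2%), beside 57.5% of all genes. Genes of the primary cilium, where Smo and the Gli proteins act, were above 5 in 13 of 13 cases, with levels from 6.73 to 9.25. Tulp3, which carries receptors into the cilium, was at 9.25 ± 0.04, Rab23 at 8.94 ± 0.09, the transport proteins Ift52 and Ift88 at 8.92 ± 0.09 and 6.73 ± 0.08, and the motor chain Dync2h1 at 6.89 ± 0.10. Kinases and ubiquitin ligases that act on Gli proteins were also above 5 in 13 of 13 cases, but they serve other pathways too. Among them were Csnk1a1 at 12.61 ± 0.01, Csnk1d at 11.44 ± 0.07, Spop at 11.25 ± 0.03, Ulk3 at 6.54 ± 0.07 and Stk36 at 6.11 ± 0.15. Other genes of reception were above 5 in 6 of 7 cases, with the glypican Gpc3 at 10.45 ± 0.05, Evc2 at 8.30 ± 0.13, Efcab7 at 7.81 ± 0.10 and Gpr161 at 6.49 ± 0.18, and Lrp2 below 5 at 4.72 ± 0.24. Of 6 genes for release of the ligands, 4 were above 5. Disp1, the exporter of the lipid-bearing ligand, was at 7.42 ± 0.14, Hhat, which attaches palmitate to it, at 6.86 ± 0.06 and Scube1 at 6.53 ± 0.09, while Scube2 and Scube3 were at 4.68 ± 0.001 and 4.30 ± 0.16. Genes of the list without such a probe set were not analysed here.

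The spread between both arrays was small for the listed genes. The log2 difference between array 1 and array 2 had an SD of 0.179 over their 92 probe sets and of 0.202 over all probe sets. Array 1 was higher in 41 of the 92 and array 2 in 51, with a median difference of -0.03. A difference beyond 2 SD of all probe sets (0.404) was found in 3 of the 92 (3.26%), beside 5.38% of all. These were the probe set of Numb with 8.98 and 8.48, the lower one of Dlk2 with 6.81 and 6.33, and the lowest of Gli3 with 4.58 and 5.03. With 2 arrays the differences were described and not tested.

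**Figure D4:**
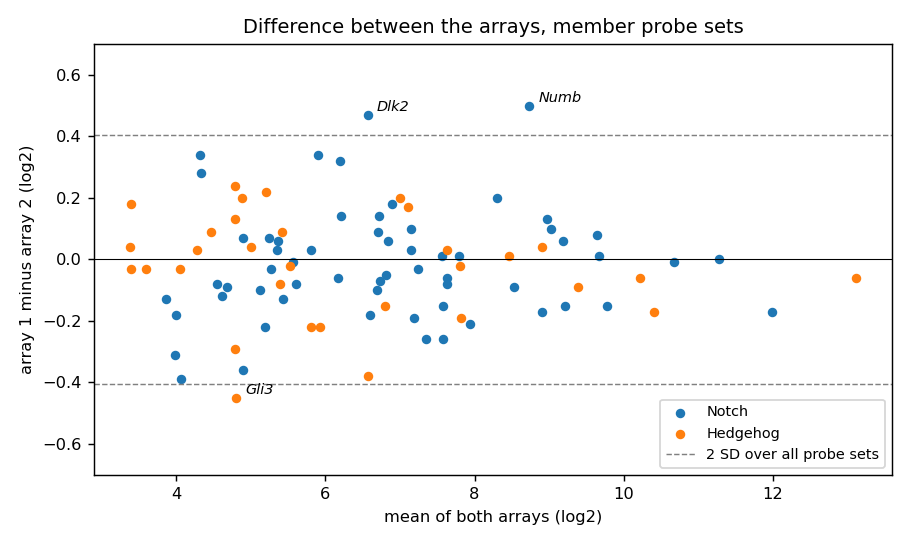
Difference of log2 signal between array 1 and array 2 (vertical axis) against the mean of both arrays (horizontal axis, log2) for the 92 probe sets of the listed genes, by pathway. Dashed lines mark 2 SD of the difference over all probe sets, 0.404, and the probe sets of Numb, Dlk2 and Gli3 lie beyond them.

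Probe sets of the same gene differed far more than the arrays did. Of the 42 genes, 33 had several probe sets, and the highest and the lowest of them lay a median of 2.01 (log2) apart, beside 2.06 over the 9010 genes of the arrays with several. The range went from 0.22 for Dhh to 6.83 for Smo. In 10 of the 33 (30.3%) at least 1 probe set was above 5 on both arrays and another was not, beside 42.0% of such genes on the arrays. Every probe set was above 5 in 26 of the 42 genes, some but not all in 10 and none in 6. Of all genes, 71.2% had at least 1 above 5, and the share with every probe set above 5 is not given here. As 9 of the 42 had only 1 probe set, every probe set can mean a single one. For Rbpj, Adam10, Adam17, Pofut1, Jag1, Gas1 and Sufu, each with 3 or more, all probe sets were above 5. For Smo, Maml1, Boc and Ncstn, also above 5 with another, the lowest probe set was under 4, and which probe set reads the transcript of these cells was not tested.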

How the data were processed

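RNA of CH cells was hybridised to 2 Affymetrix mouse arrays. Log2 signals for each probe set were deposited by the authors. In their methods the arrays went through RMA and quantile normalisation jointly with 5 series of other cells. Whether the log2 values used here stem from that run, and the versions of the tools, are not given in the sources used here. After removal of 64 control probe sets, 45037 remained. The annotation named 1 gene for 34945 and several for 932, and did not list 9160.

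The mean of each probe set was tested against 5 with limma 3.58.1 (R 4.3.3; intercept alone, empirical Bayes moderation, two-sided, Benjamini-Hochberg adjustment over all 45037). In simulated data the means were fixed at their set values, so that run could not give a rate of false calls above 5. A gene was above by limma when 1 of its probe sets had an adjusted p under 0.05 and a mean above 5. A gene was below when its highest probe set was. Shares and medians of lists were not tested. With 2 arrays, precision is limited.

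The members and all lists were chosen with earlier results of these data known. Named were all listed genes, the 3 highest, 2 lowest and all not above 5 of each list of other pathway genes, and defining markers. Alternatives were other limits (6, 8 and the chemosensory percentile), limma, quantile normalization of both arrays, each array left out, the median of a gene's probe sets and no _s_at, _x_at or _a_at probe sets. Python 3.11.15 with pandas 2.3.3, numpy 2.4.6 and matplotlib 3.10.9 was used.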

Additional observations from a re-analysis of the deposited data

How the results depend on the processing

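No paired analysis was possible because the arrays form a single group. For the 5 counts named next, only the limit of 8 moved one by over 1.5 times, as a higher limit must admit fewer genes. The counts at 8 were 10 Notch genes, 4 Hedgehog genes, 24 other Notch genes, 16 other Hedgehog genes and 6738 of all genes. Under the other alternatives the Notch count ran from 23 to 28 and the Hedgehog count from 8 to 10. With an array left out, the counts were 27 to 28 for Notch, where array 2 alone admits Notch4, and 9 to 10 for Hedgehog, where array 1 alone admits Dhh. They were 41 for the other Notch genes and 36 for the other Hedgehog genes on either array, and 13179 to 13253 for all genes. A limit of 6 and the chemosensory percentile both lowered smaller lists by over 1.5 times, to 4 chemosensory receptors, 2 endothelial markers, 3 platelet markers, 2 other Notch ligands and 0 other Hes genes. With the median of each gene's probe sets, 24 Notch genes were above 5, and Lfng, Heyl and Hes5 went below it, at 4.96, 4.90 and 4.76, because their other probe sets lie below 5. In all, 32 of the 42 levels changed by more than their SD this way, among them that of Ptch1 from 8.91 to 5.42. Without _s_at, _x_at and _a_at probe sets, 25 Notch genes were above 5, 5 of the 7 targets among them, and Dlk2 and Hes6 had no probe set left. Beyond their SD 5 levels changed, among them Notch3 from 7.79 to 5.56, Psen2 from 7.58 to 5.81 and Maml1 from 9.21 to 7.58. After quantile normalization the SD of the difference between the arrays over the listed genes was 0.180.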
